A study of Mus musculus with 3 samples.

Results

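The 8 genes described here encode synaptotagmins and the core of the machinery that fuses synaptic vesicles with the plasma membrane: *Syt1*, *Syt4*, *Syt5*, *Syt11*, *Snap25*, *Stx1a*, *Vamp2* and *Cplx2*. Their rows were taken by symbol, with no threshold on a measured value, and all 8 were found among the 14933 genes of the table of filtered cells. The genes were chosen with earlier results of these data known, so the set is not independent of the values. The study asked which genes depend on *Tbr1*, which encodes a T-box transcription factor, in layer 5 neurons of the mouse medial prefrontal cortex (mPFC) at postnatal day 5. The C57Bl6 mice carried Rbp4cre and a tdTomato reporter in all 3 groups, and differed in the floxed *Tbr1* allele: wild-type, heterozygous (Tbr1f/+) or homozygous (Tbr1f/f). Cre driven by *Rbp4*, which acts in layer 5 neurons, removes part of the floxed gene, and tdTomato+ cells were sorted and sequenced as 1 10X Chromium library for each genotype. The number of animals behind a library is not given in the sources used here, so the genotype and the library cannot be told apart.

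Vesicle release is triggered when calcium enters a nerve terminal. A v-SNARE on the vesicle (*Vamp2*) zippers with t-SNAREs on the plasma membrane (*Stx1a* and *Snap25*), complexins such as *Cplx2* clamp and then assist the assembled complex, and *Syt1* is the calcium sensor for fast release. The other synaptotagmins differ in calcium binding and in their vesicles: *Syt4* and *Syt11* lack a residue that calcium binding needs, *Syt4* is tied to dense-core and postsynaptic vesicles, *Syt11* to endocytosis and membrane trafficking, and *Syt5* to dense-core vesicle secretion.

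Promoter sequences are shown for *Stx1a* and *Cplx2*, which were both higher in the mutant libraries, and for *Syt11*, which went the other way. RefSeq windows were matched for 4 of the 8 genes (*Syt1* with 2 windows, *Syt11*, *Stx1a* and *Cplx2*). Each sequence is the 250 bases before the RefSeq start on GRCm38.p6, 5′ to 3′ on the strand of the gene, at chr5:135023232-135023481 (+) for *Stx1a*, chr13:54302306-54302555 (+) for *Cplx2* and chr3:88772600-88772849 (-) for *Syt11*. Capitals mark the E-box CAGCTG, which is the same on both strands.
Stx1a: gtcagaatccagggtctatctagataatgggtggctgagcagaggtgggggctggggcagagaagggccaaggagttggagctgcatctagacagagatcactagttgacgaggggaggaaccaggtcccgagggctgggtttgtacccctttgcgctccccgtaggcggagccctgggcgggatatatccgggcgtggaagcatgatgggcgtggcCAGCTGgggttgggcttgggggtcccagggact
Cplx2: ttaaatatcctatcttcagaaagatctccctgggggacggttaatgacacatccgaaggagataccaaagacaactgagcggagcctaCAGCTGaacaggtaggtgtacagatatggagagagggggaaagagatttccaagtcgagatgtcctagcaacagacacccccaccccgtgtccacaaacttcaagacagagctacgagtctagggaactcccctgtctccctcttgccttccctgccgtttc
Syt11: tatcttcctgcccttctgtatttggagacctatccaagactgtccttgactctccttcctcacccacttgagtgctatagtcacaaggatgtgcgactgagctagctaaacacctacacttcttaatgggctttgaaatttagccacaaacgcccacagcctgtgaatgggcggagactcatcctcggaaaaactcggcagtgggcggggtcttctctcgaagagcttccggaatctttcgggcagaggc

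The T-box core GGTGTGA, searched on both strands, was found in 0 of the 5 windows of these genes and in 3.33% of all 32851 windows of this length. The cAMP response element TGACGTCA was found in 0 of the 5 and in 1.55% of all, and the E-box in 3 of the 5 and in 13% of all. In the GENCODE annotation of GRCm38 the genes span chr5:135023482-135051100 (*Stx1a*), chr13:54371349-54383917 (*Cplx2*), chr3:88744700-88775164 (*Syt11*), chr10:108497650-109010982 (*Syt1*), chr2:136713453-136782428 (*Snap25*), chr11:69088490-69092384 (*Vamp2*) and chr7:4539765-4547541 (*Syt5*), so the RefSeq start of *Cplx2* lies upstream of its GENCODE gene, and the *Syt11* window and the *Syt1* window with the E-box lie inside theirs. The E-box began 33 bases before the start of *Stx1a*, 162 before that of *Cplx2* and 31 before that of 1 *Syt1* window. The E-box was the only one of the 3 motifs found in these windows, so no matches overlapped.

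The libraries held 1778, 5357 and 3935 typical neuronal cells (wild-type, heterozygous and homozygous), which are the neuronal cells that the authors kept for their test of differential expression. A further 304, 107 and 462 atypical neuronal cells were set aside by the authors, and 2873, 1398 and 1182 other sorted cells lay outside the neuronal table. Median unique molecular identifiers (UMIs, counted molecules) per typical cell were 1901, 1743 and 1375, and the median mitochondrial share was 10.4%, 15.4% and 12.5%. The excitatory neuron list had UMIs for 10 of 10 markers in typical cells of each library, summing to 5474, 6042 and 6982 CPM (UMIs of a gene per 1000000 UMIs of the class in that library). In empty droplets (barcodes of at least 100 and fewer than 500 UMIs) this list summed to 4008, 5180 and 5195 CPM. Astrocyte and radial glia markers, also 10 of 10 with UMIs, summed to 7321, 6385 and 7233 CPM in typical cells, close to 7171, 6867 and 7407 CPM in empty droplets. The targeted *Tbr1* stood at 27.5, 30.7 and 22.4 CPM in typical cells. The homozygous over wild-type log2 ratio of *Tbr1* was -0.30 with a 95% interval of -0.68 to 0.09, and the heterozygous 0.16 (-0.17 to 0.50). Homozygous over heterozygous it was -0.46 (-0.76 to -0.16), with 1.01% of the genes that averaged 20 CPM or more lower still. Where these 3′ counts lie relative to the floxed exons was not examined, so they do not check the genotype. Libraries shared between 37 and 58 cell barcodes, against 37.5 to 51.9 for random draws.

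The question here was whether the fusion genes differ between *Tbr1* wild-type and mutant layer 5 cells. *Snap25*, *Stx1a*, *Vamp2* and *Cplx2* were higher in both mutant libraries than in the wild-type library by 1.26- to 1.49-fold. *Syt5* was also higher in both, *Syt4* and *Syt1* were higher by less, and *Syt11* was lower. With 1 library for each genotype no test of genotype can be made. Intervals are exact and cover counting error only, and fewer cells expressing a gene and less RNA per cell cannot be told apart in these sums.

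The v-SNARE *Vamp2* measured 551, 804 and 732 CPM (wild-type, heterozygous, homozygous). Its log2 ratios to wild-type were 0.54 (0.47 to 0.62) and 0.41 (0.33 to 0.49). Both mutant values lay above the wild-type value with intervals that exclude equality. The t-SNARE *Snap25*, which anchors to the membrane through lipid chains, measured 162, 241 and 227 CPM in the same order. Its ratios were 0.57 (0.44 to 0.70) and 0.49 (0.35 to 0.63). *Snap25* thus had the highest heterozygous ratio of the 8, above 96.1% of the 4261 genes tested, which averaged 20 CPM or more. The other t-SNARE *Stx1a*, a transmembrane syntaxin, measured 131, 182 and 170 CPM, with ratios of 0.47 (0.32 to 0.62) and 0.38 (0.22 to 0.53). The complexin *Cplx2* measured 294, 395 and 369 CPM, with ratios of 0.43 (0.33 to 0.52) and 0.33 (0.22 to 0.43). In each of these 4 genes the wild-type library was lowest and the heterozygous library highest.

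The synaptotagmins did not share 1 direction. The fast calcium sensor *Syt1* measured 83.4, 95.03 and 92.8 CPM, with log2 ratios of 0.19 (0.00 to 0.38) and 0.16 (-0.05 to 0.36). *Syt4* measured 54.5, 69.8 and 67.7 CPM, with ratios of 0.36 (0.13 to 0.59) and 0.31 (0.07 to 0.56). For *Syt1* the homozygous interval includes equality, whereas both intervals of *Syt4* lie above it. *Syt5* measured 31.9, 45.2 and 48.6 CPM, with ratios of 0.50 (0.21 to 0.81) and 0.61 (0.29 to 0.93), the highest homozygous ratio of the 8. *Syt11* measured 83.6, 69.5 and 74.1 CPM, with ratios of -0.27 (-0.46 to -0.07) and -0.18 (-0.39 to 0.04). *Syt11* was the only one of the 8 genes below equality in either mutant library.

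Of the 8 genes, 6 were at least 25% higher in the heterozygous library, beside 17.1% of all genes tested, and 0 were lower by the same factor, beside 9.5% of all. In the homozygous library 5 were higher, beside 17.2%, and 0 lower, beside 8.5%. With the UMIs of the genes in the authors' neuronal table as denominator 3 were higher there, *Stx1a* and *Cplx2* falling short, and with raw UMIs 0. Raw UMIs move the homozygous over wild-type log2 ratio of every gene by -0.42. Neither count has a background beside it, since the share of all genes higher by the 25% factor was not computed under these alternatives. Just inside this fold stood *Cplx2* at 1.26-fold in the homozygous library, and just outside stood *Syt4* at 1.24-fold. The median log2 ratio over the 8 genes was 0.45 (heterozygous) and 0.35 (homozygous), against 0.06 and 0.08 over all genes tested. Both mutant ratios share the wild-type library, so they are not independent of each other. *Snap25*, *Stx1a*, *Vamp2* and *Cplx2* are in the authors' lists of genes that differ between genotypes in these same cells, and their text names *Syt4* among such genes. The counts of the 8 genes are thus not independent evidence of direction or size. The authors' test used UMIs without normalization, and the direction of their calls is not given here. The paper also expressed *Syt4* in cultured mutant neurons, where among the genes tried only *Kif1a* restored both excitatory and inhibitory synapses.

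The homozygous and heterozygous libraries were close to each other. Their log2 ratio ran from -0.13 for *Vamp2* to 0.10 for *Syt5*, and 0 of 8 genes passed this factor in either direction, beside 4.04% of all genes higher and 2.68% lower. The 8 genes together took 0.139%, 0.1902% and 0.178% of UMIs (wild-type, heterozygous, homozygous). Of these UMIs *Vamp2* made up 39.6%, 42.3% and 41.1% and *Cplx2* 21.1%, 20.8% and 20.7%. The sum therefore mostly follows these genes and says little of the synaptotagmins. The homozygous over heterozygous log2 ratio of this sum was -0.09 (-0.13 to -0.06).

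**Figure D1:**
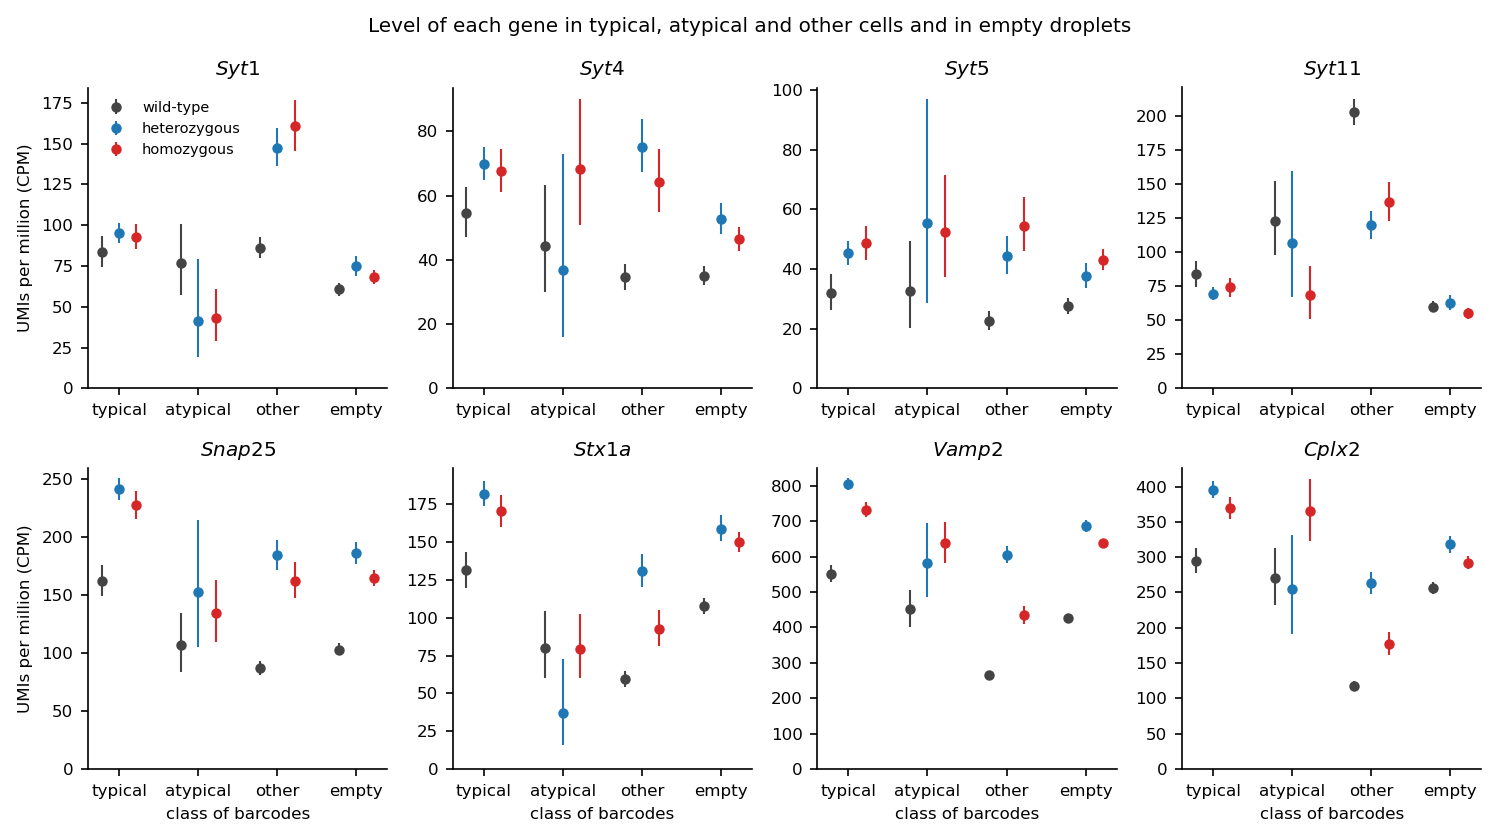
Level of each of the 8 genes (CPM) in typical neuronal, atypical neuronal and other sorted cells and in empty droplets, 1 point for each library with its exact 95% Poisson interval. In typical cells the wild-type point is the lowest of the 3 for 7 genes, and for *Syt11* it is the highest at 83.6 CPM.

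The SNAREs and *Cplx2* were also higher in the mutant libraries in empty droplets and in the other sorted cells, but not all were in atypical cells, where *Stx1a* had log2 ratios of -1.11 (-2.39 to -0.03) and -0.01 (-0.57 to 0.55) and *Cplx2* -0.09 (-0.55 to 0.35) and 0.43 (0.16 to 0.71). In empty droplets, which hold free RNA, *Vamp2* measured 426, 686 and 637 CPM, and its log2 ratios to wild-type were 0.69 (heterozygous) and 0.58 (homozygous). *Snap25* ratios in empty droplets were 0.85 and 0.67, *Stx1a* 0.56 and 0.48, and *Cplx2* 0.31 and 0.19. The synaptotagmins *Syt5* (0.44 and 0.64), *Syt4* (0.59 and 0.41) and *Syt1* (0.30 and 0.17) were higher there too, with intervals above equality. These RNAs thus also took a larger share of the UMIs of empty droplets in the mutant libraries, whereas *Syt11* there stood at 0.07 (-0.09 to 0.22) and -0.13 (-0.27 to 0.02). Empty droplets were set by their number of UMIs, so small or damaged cells among them were not excluded. In the other sorted cells the ratios were larger still, at 1.19 and 0.71 for *Vamp2*, and *Syt11* stood at -0.76 and -0.57. The mix of other sorted cells differed between libraries, with 44, 278 and 19 cells (wild-type, heterozygous, homozygous) in the excitatory neuron-like cluster 6 and 568, 81 and 85 in the inhibitory neuron-like cluster 2. Within the astrocyte or radial glia-like cluster 3, *Syt11* had -0.29 (-0.57 to -0.02) and -0.49 (-0.79 to -0.20). In the same cluster *Snap25* had 0.88 (0.22 to 1.52) and 1.002 (0.36 to 1.62), *Cplx2* 0.68 (0.20 to 1.13) and 0.61 (0.14 to 1.07), and *Vamp2* 0.64 (0.34 to 0.93) and 0.30 (-0.03 to 0.61). The summed level of the 8 genes had heterozygous over wild-type ratios of 0.45 in typical cells, 0.84 in other cells and 0.55 in empty droplets, and homozygous ratios of 0.36, 0.55 and 0.44. Levels in typical cells were 1.11-fold (*Syt11*, heterozygous) to 1.57-fold (*Snap25*, wild-type) those in the empty droplets of their own library, and the intervals of *Syt11* in the heterozygous and of *Syt5* in the wild-type and homozygous libraries include equality.

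Markers of other cells also differed between the typical cells of the 3 libraries. The blood list (5 of 5 genes with UMIs) summed to 345, 44.6 and 85.8 CPM, and the endothelial list (9 of 9) to 120, 34.7 and 58.9 CPM. Lists for blood, endothelial, mural, meningeal and microglial cells were set against their empty-droplet levels, and they differed widely. The meningeal list in typical cells stood at 78.0%, 66.4% and 85.5% of its level in empty droplets. The lowest list in each library (mural, microglial and blood, in that order) allows a free RNA share of at most 26.1%, 13.5% and 20.3% in typical cells. When the empty-droplet profile was subtracted at these shares, the summed ratio was 0.38 (heterozygous) and 0.31 (homozygous). The part of blood and endothelial RNA, mitochondrial share and depth in the ratios was not tested beyond this.

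Raw UMIs per typical cell, with no scaling for depth, gave a summed log2 ratio of 0.36 (heterozygous) and -0.06 (homozygous). Without scaling every gene moves by the same amount, which is -0.09 (heterozygous) and -0.42 (homozygous) on the log2 scale, the ratio of mean UMIs per typical cell. The homozygous ratios of *Syt1*, *Syt4*, *Stx1a*, *Vamp2* and *Cplx2* then lie below 0.

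**Figure D2:**
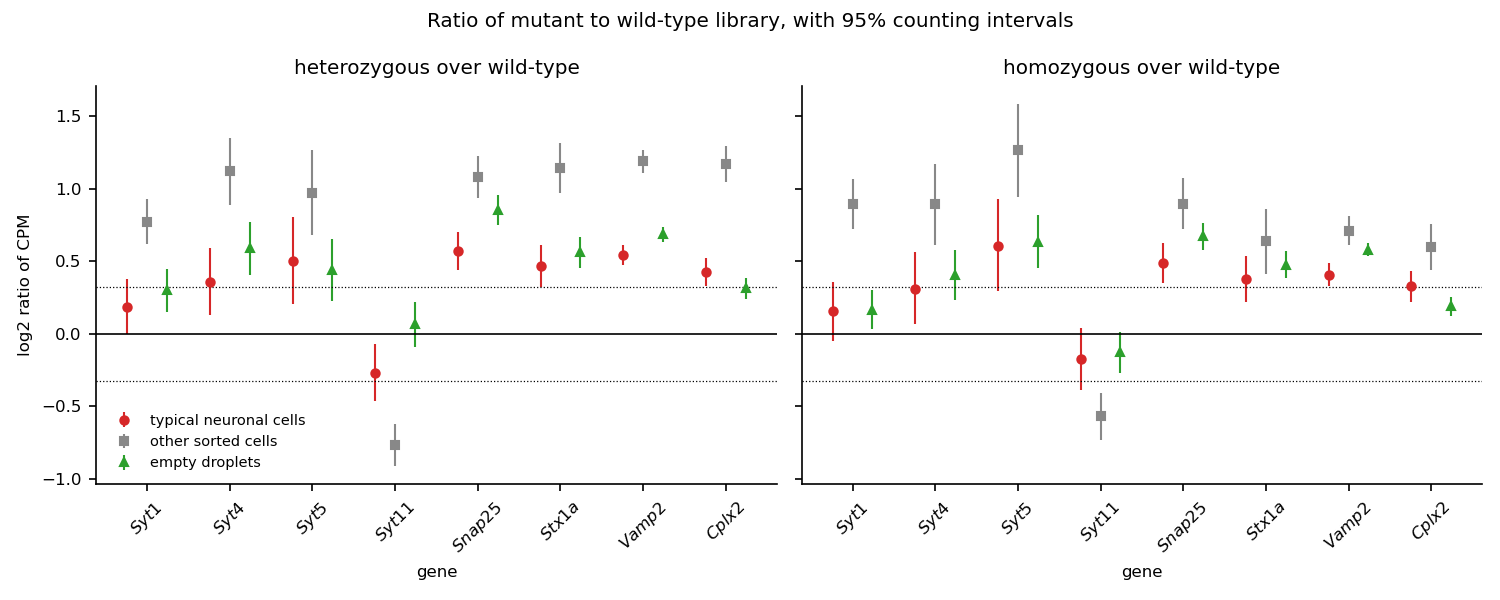
Log2 ratio of CPM (vertical axis) of the heterozygous (left) and homozygous (right) library over wild-type for each gene, in typical neuronal cells, other sorted cells and empty droplets, with exact 95% counting intervals and dotted lines at the factor for 25% higher. *Syt5*, *Snap25*, *Stx1a* and *Vamp2* lie above the upper line in all 3 classes, and *Syt11* lies below 0 in both panels in typical and other cells.

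Among a list of 77 further genes of vesicle fusion, 75 were in the table and 46 averaged 20 CPM or more in typical cells. Of these 46, 13 were at least 25% higher and 1 lower by that factor in the heterozygous library, and 12 higher and 5 lower in the homozygous, with medians of 0.12 and 0.10. Beside these counts, 17.1% and 9.5% of all genes tested were higher and lower in the heterozygous library, and 17.2% and 8.5% in the homozygous. Other SNAREs had 5 of 9 genes higher and 0 lower in each mutant library, not all of them the same genes, with medians of 0.40 and 0.34, beside the same shares of all genes. *Stx6*, counted higher in each, reached a mean of 20 CPM only through the mutant libraries. Priming and active zone genes had medians of -0.16 and -0.12, and 11 of 15 lay below equality in each, as did 1756 and 1660 of the 4261 genes tested. SNARE regulators had 4 of 10 (heterozygous) and 5 of 10 (homozygous) higher, with 0 lower.

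Among the 46 genes that averaged 20 CPM or more, the 3 highest homozygous ratios belonged to *Vamp7*, a SNARE of late endosomes and lysosomes, *Stx6*, a syntaxin of the trans-Golgi network, and *Synpr*, which encodes the vesicle protein synaptoporin. *Vamp7* measured 37.1, 52.9 and 54.3 CPM, with ratios of 0.51 (0.24 to 0.79) and 0.55 (0.26 to 0.85). *Stx6* measured 18.5, 24.9 and 26.8 CPM, with ratios of 0.42 (0.03 to 0.83) and 0.53 (0.12 to 0.96). *Synpr* measured 16.3, 22.0 and 23.4 CPM, with ratios of 0.43 (0.01 to 0.86) and 0.52 (0.07 to 0.98). Both lay below 20 CPM in the wild-type library and reached a mean of 20 CPM only through the mutant libraries. The 3 lowest were *Syt13*, *Syt7* and *Ppfia2*, which encodes an active zone scaffold of the liprin family. *Syt7*, a high-affinity calcium sensor of slower release, measured 39.2, 25.2 and 26.5 CPM, with ratios of -0.64 (-0.93 to -0.33) and -0.57 (-0.90 to -0.23). *Syt13*, which does not bind calcium, measured 26.2, 23.0 and 16.1 CPM, with ratios of -0.18 and -0.70. It lay below 20 CPM in the homozygous library and reached a mean of 20 CPM only through the wild-type and heterozygous libraries. *Ppfia2* had ratios of -0.27 and -0.52. Of the 3 further synaptotagmins tested, 1 lay above and 2 below equality in each mutant library.

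The fusion SNAREs and *Cplx2* were higher in typical neuronal cells than in the other sorted cells of the same library, and *Syt11* was lower. The cell classes come from clusters of these cells, so these are descriptions without a test, and 3 paired libraries could not go below an exact two-sided p of 0.25. *Cplx2* had log2 ratios of typical to other cells of 1.33 (1.21 to 1.46), 0.59 (0.49 to 0.68) and 1.06 (0.91 to 1.205) for wild-type, heterozygous and homozygous. *Stx1a* had 1.15, 0.47 and 0.88, and *Vamp2* 1.06, 0.41 and 0.75. *Snap25* had 0.90, 0.39 and 0.49. All 4 were above equality in each library, and for each the heterozygous library had the smallest ratio. *Syt11* had -1.28 (-1.46 to -1.10), -0.78 (-0.95 to -0.62) and -0.88 (-1.09 to -0.68). *Syt1*, the fast calcium sensor, had -0.05, -0.63 and -0.79, but 0.91, 0.43 and 1.10 when the excitatory and inhibitory neuron-like clusters were left out of the other cells. With raw UMIs the 4 ratios of *Snap25*, *Stx1a*, *Vamp2* and *Cplx2* were below equality in the heterozygous library, as was *Snap25* in the homozygous. The ratios of *Syt4* (0.66, -0.11 and 0.07) and *Syt5* (0.49, 0.02 and -0.17) exceeded equality beyond counting error in the wild-type library only, and differences between libraries were not tested.

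At least 2-fold higher in typical cells were 3 of 8 genes in the wild-type library (*Stx1a*, *Vamp2* and *Cplx2*), beside 4.07% of all genes, 0 in the heterozygous, beside 0.0204%, and 1 in the homozygous (*Cplx2*), beside 1.3%. Without the excitatory and inhibitory neuron-like clusters among the other cells the counts were 6, 0 and 5, and with raw UMIs 0 in each library. The share of all genes past 2-fold was not computed for either alternative, so these counts have no background beside them. The striatal neuron-like cluster 16 and Cajal-Retzius neuron-like cluster 17 stayed among the other cells. So did the unnamed cluster 1, whose best marker list was excitatory neuron, with 480 of the 1398 heterozygous cells. At least 2-fold lower was *Syt11* in the wild-type library, beside 28.3% of all genes, and 0 of 8 in the heterozygous (10.8%) and homozygous (21.8%) libraries. *Neurod6*, a marker of excitatory cortical neurons, had log2 ratios of 1.69, 0.74 and 1.43 in the same comparison, and *Nrgn*, another such marker, 1.90, 0.36 and 1.35. The excitatory neuron markers were thus also least separated in the heterozygous library. There 278 of the 1398 other cells formed an excitatory neuron-like cluster of deep cells, and its part in the marker ratios was not tested.

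*Stx1a*, *Snap25* and *Vamp2* were higher in typical than in atypical neuronal cells of each library. *Stx1a* measured 79.9, 37.0 and 79.2 CPM in atypical cells, and its log2 ratio of typical to atypical was 0.72 (0.31 to 1.15), 2.296 (1.31 to 3.51) and 1.11 (0.73 to 1.51). The heterozygous value rests on 8 UMIs of *Stx1a* in 107 atypical cells. *Snap25* had ratios of 0.61 (0.25 to 0.98), 0.66 (0.17 to 1.202) and 0.76 (0.47 to 1.07), and *Vamp2* 0.29 (0.11 to 0.47), 0.46 (0.21 to 0.73) and 0.20 (0.06 to 0.34). *Syt1* had 0.12, 1.19 and 1.11, the heterozygous one on 9 UMIs. *Cplx2* had 0.12 (-0.11 to 0.35), 0.64 (0.25 to 1.05) and 0.02 (-0.16 to 0.204), above equality beyond counting error in the heterozygous library only. *Syt11* had -0.55 (-0.91 to -0.19), -0.61 (-1.21 to 0.05) and 0.11 (-0.31 to 0.56), below equality beyond counting error in the wild-type library only, and differences between libraries were not tested. *Stx1a* and *Syt1* were the 2 genes past 2-fold in both mutant libraries, beside 8.4% (heterozygous) and 2.83% (homozygous) of all genes, and 0 of 8 passed it in the wild-type, beside 1.9%. None of the 8 was 2-fold lower, beside 3.31%, 3.95% and 2.08% of all genes. Striatal neuron markers summed to 618, 768 and 854 CPM in atypical cells, and to 153, 133 and 169 CPM in typical cells. Blood markers in atypical cells summed to 345, 60.1 and 997 CPM, and the part of either list in these ratios was not tested.

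The 5453 other sorted cells were grouped into 20 clusters on genes that exclude the 8 genes and the 77 of the list, so a level of these genes played no part in the clusters. Clusters were named from marker genes as "-like". The clearest pattern was that *Syt1* and *Syt11* had their highest levels in different kinds of cell, and neither in typical layer 5 cells. *Syt1* was highest in cluster 7, inhibitory neuron-like cells led by *Npy* and *Sst*, and *Syt11* in cluster 3, astrocyte or radial glia-like cells led by *Ptprz1* and *Slc7a10*.

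In cluster 7, *Syt1* measured 887 CPM in the wild-type (114 cells), 790 in the heterozygous (92 cells) and 879 in the homozygous library (101 cells). These levels were 10.6-, 8.32- and 9.47-fold those of typical neuronal cells of the same library. The lowest of the 3 values lay far above the highest typical value, 95.03 CPM. The other inhibitory neuron-like cluster, cluster 2, led by *Igfbpl1* and *Sp8* and with *Dlx1* and *Sp9* among its leading genes, measured 59.3, 76.7 and 77.3 CPM. High *Syt1* was therefore a feature of 1 of the 2 inhibitory neuron-like clusters. In Cajal-Retzius neuron-like cells (cluster 17, led by *Reln*) it measured 449 CPM in the wild-type library, the only one with at least 20 such cells.

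The other synaptotagmins of the release pathway were also high in cluster 7. *Syt4* measured 144, 219 and 215 CPM there and *Syt5* 106, 168 and 226 CPM. These were 2.65- to 3.18-fold (*Syt4*) and 3.32- to 4.66-fold (*Syt5*) the typical level. Striatal neuron-like cells (cluster 16, led by *Tac1*) had *Syt5* at 141 and 240 CPM in the wild-type and homozygous libraries, a range that overlaps cluster 7.

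*Snap25* in cluster 7 measured 384, 384 and 491 CPM, which was 2.37-, 1.59- and 2.16-fold the typical level. *Vamp2* measured 603, 900 and 941 CPM there, only 1.09-, 1.12- and 1.28-fold typical. *Stx1a* stood at 191, 179 and 204 CPM and *Cplx2* at 284, 310 and 271 CPM, and for both the range over libraries overlapped that of typical cells. *Cplx2* was nevertheless below typical cells beyond counting error in the heterozygous (-0.35, -0.63 to -0.09) and homozygous (-0.45, -0.76 to -0.15) libraries, and *Stx1a* above them in the wild-type (0.54, 0.17 to 0.89). *Syt11* measured 214, 174 and 165 CPM in cluster 7, which was 2.56-, 2.50- and 2.22-fold typical. The 4 synaptotagmins and *Snap25* thus lay above the typical range in cluster 7 in every library. In cluster 6, the excitatory neuron-like cells led by *Nrgn*, *Stx1a* measured 223 and 185 CPM and *Cplx2* 356 and 380 CPM in the wild-type and heterozygous libraries.

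*Cplx2* was low in Cajal-Retzius neuron-like cells. In the wild-type library it measured 64.2 CPM on 17 UMIs in 49 cells, 4.58-fold below typical cells, while *Vamp2* stood at 597 CPM (1.08-fold typical) and *Snap25* at 374 CPM (2.31-fold typical). *Stx1a* measured 98.2 CPM there (0.748-fold typical), with an interval that includes equality. That level of *Cplx2* was close to 63.1 CPM in endothelial-like cells (cluster 4) of the same library.

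*Syt11* in cluster 3 measured 499.3, 408 and 356 CPM, which was 5.97-, 5.87- and 4.80-fold the typical level. It was likewise high in wild-type cells of the ependymal-like cluster 12 (386 CPM), of the oligodendrocyte lineage-like clusters 14 (382 CPM) and 8 (300 CPM), of the cycling-like cluster 19 (375 CPM), and of cluster 15, a *Gfap*-led astrocyte-like group (355 CPM). The endothelial-like cells had 27.9, 23.5 and 14.1 CPM. *Syt11* was thus the 1 gene of the 8 above its typical level in cluster 3, where the other 7 lay below theirs in each library. Its range in cluster 3 overlapped that of cluster 14 (292 to 382 CPM over 2 libraries) and lay above that of cluster 8 (292 to 300 CPM over 2 libraries). *Syt1*, by contrast, measured 46.5, 62.3 and 27.8 CPM in cluster 3.

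Endothelial-like cells had *Stx1a* at 73.9, 114 and 93.7 CPM, above its 19.9, 37.5 and 10.7 CPM in the microglia or macrophage-like cluster 9. *Stx1a* in endothelial-like cells was 1.78-, 1.59- and 1.82-fold below typical cells, whereas *Snap25* there was 3.75-, 4.50- and 7.47-fold below. In empty droplets of the wild-type library *Stx1a* and *Snap25* measured 108 and 103 CPM. The part of free RNA in the endothelial level of *Stx1a* was not tested.

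**Figure D3:**
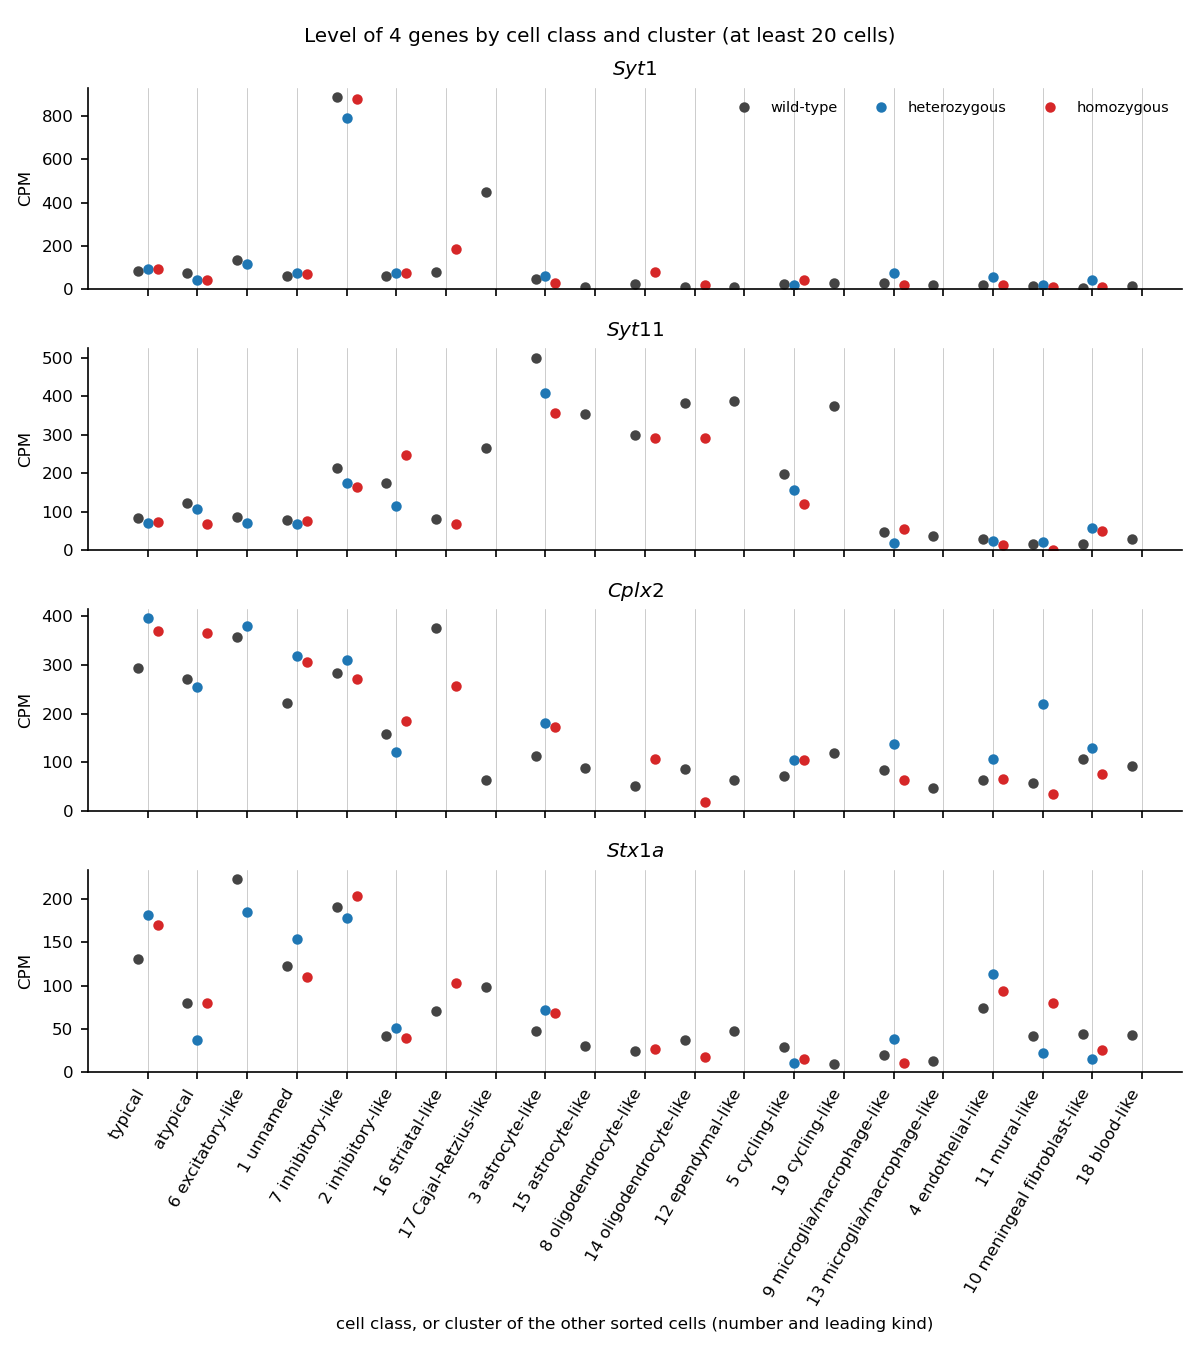
Level (CPM) of *Syt1*, *Syt11*, *Cplx2* and *Stx1a* in typical and atypical neuronal cells and in each cluster of other sorted cells, 1 point for each library with at least 20 cells. *Syt1* peaks in inhibitory neuron-like cluster 7 (790 to 887 CPM) and *Syt11* in astrocyte-like cluster 3 (356 to 499.3 CPM). *Cplx2* is at 64.2 CPM in the Cajal-Retzius-like cluster, and lower in some clusters without neuronal names, such as cluster 13 (46.6 CPM).

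**Figure D4:**
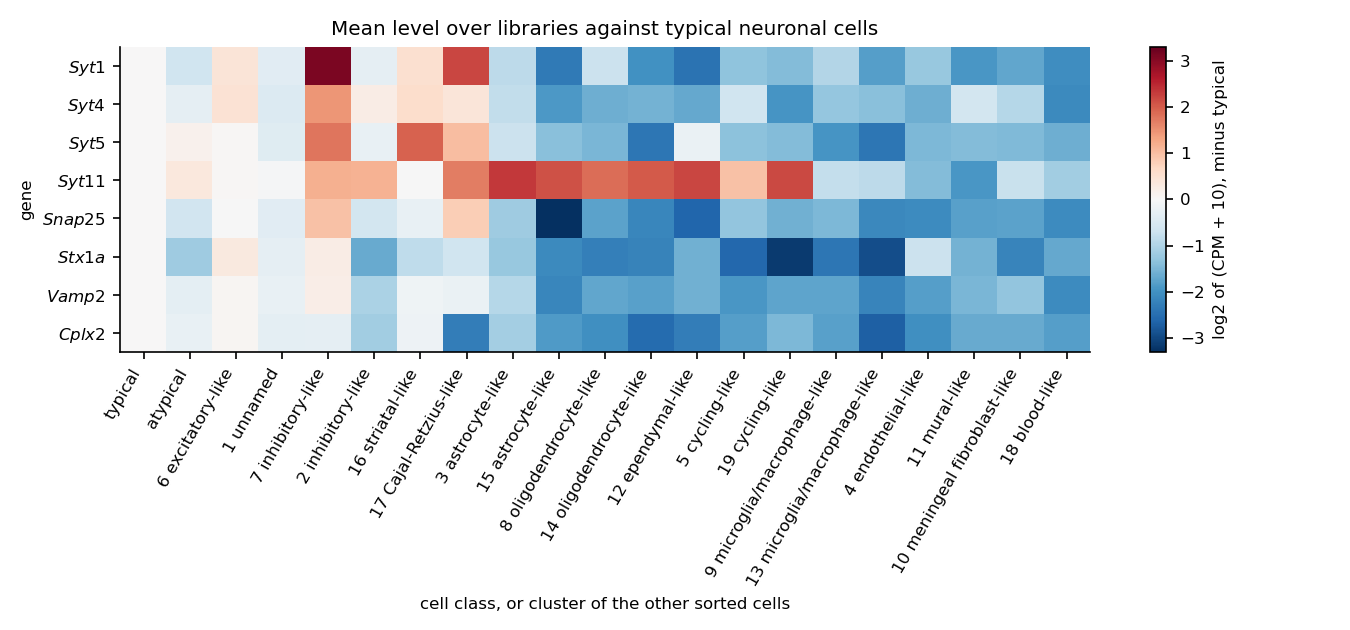
Mean over libraries (with at least 20 cells) of each gene in each class or cluster, as the log2 of CPM plus 10 minus that of typical neuronal cells, so low levels are understated. Red cells are above typical: *Syt1* in cluster 7 (mean 852 against 90.4 CPM) and *Syt11* in cluster 3 (mean 421 against 75.7 CPM) stand out.

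Within clusters the genotype ratios varied. In cluster 7, the summed level of the 8 genes had log2 ratios to wild-type of 0.15 (0.03 to 0.27) for heterozygous and 0.27 (0.15 to 0.39) for homozygous, and *Vamp2* had 0.58 (0.33 to 0.82) and 0.64 (0.40 to 0.89). *Syt1* in the same cells had -0.17 (-0.40 to 0.06) and -0.01 (-0.24 to 0.21). The intervals of *Vamp2* in cluster 7 lay above equality, as in typical cells, and those of *Syt1* included it. In the other inhibitory neuron-like cluster, cluster 2, *Vamp2* had 0.08 (-0.38 to 0.51) and 0.32 (-0.14 to 0.76). In clusters without neuronal names its ratios reached 1.49 (0.74 to 2.28) and 1.30 (0.40 to 2.198) in the microglia or macrophage-like cluster 9, on 24 wild-type UMIs. They were 1.26 (0.59 to 1.90) and -0.12 (-1.07 to 0.74) in meningeal fibroblast-like cells, and 0.79 (0.39 to 1.18) and -0.05 (-0.49 to 0.37) in endothelial-like cells. In endothelial-like cells the summed level had ratios of 0.71 (0.46 to 0.95) and -0.05 (-0.32 to 0.21). In the unnamed cluster 1 the summed level had 0.58 and 0.41. This cluster was led by *Crybb1* and *Aif1*, with *Nefl* and *Nrgn* among its leading genes, and its best marker list was excitatory neuron (*Neurod6* and *Nrgn*).

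Each cell was thinned to 1000 UMIs so that shares could be compared across depths, and 0 cells were left out, since the shallowest held 1039. *Vamp2* then had a UMI in 42.6% of wild-type, 54.2% of heterozygous and 51.7% of homozygous typical cells, with exact intervals of 40.3 to 44.97, 52.9 to 55.6 and 50.2 to 53.3. Endothelial-like cells had 14.1%, 23.4% and 11.9%, at median depths of 2845, 2433 and 1914 UMIs before thinning. *Snap25* had 14.3%, 20.8% and 19.3% in typical cells, against 3.76%, 8.41% and 1.89% in endothelial-like cells. Both shares were thus above those of endothelial-like cells in each library. *Syt1* had 7.93%, 9.02% and 8.996% in typical cells but 43.0%, 43.5% and 50.5% in cluster 7. *Syt11* had 8.21%, 7.04% and 6.71% in typical cells but 39.4%, 38.4% and 31.1% in cluster 3. *Stx1a* stood at 12.4%, 17.02% and 15.02% in typical cells against 7.21%, 10.3% and 10.7% in endothelial-like cells, the narrowest gap of the SNAREs. At least 1 of the 8 genes had a UMI in 73.3%, 83.0% and 81.4% of typical cells, and the mean number of the 8 per typical cell was 1.18, 1.496 and 1.42. Without thinning, any of the 8 had a UMI in 91.2%, 94.2% and 90.1% of typical cells.

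**Figure D5:**
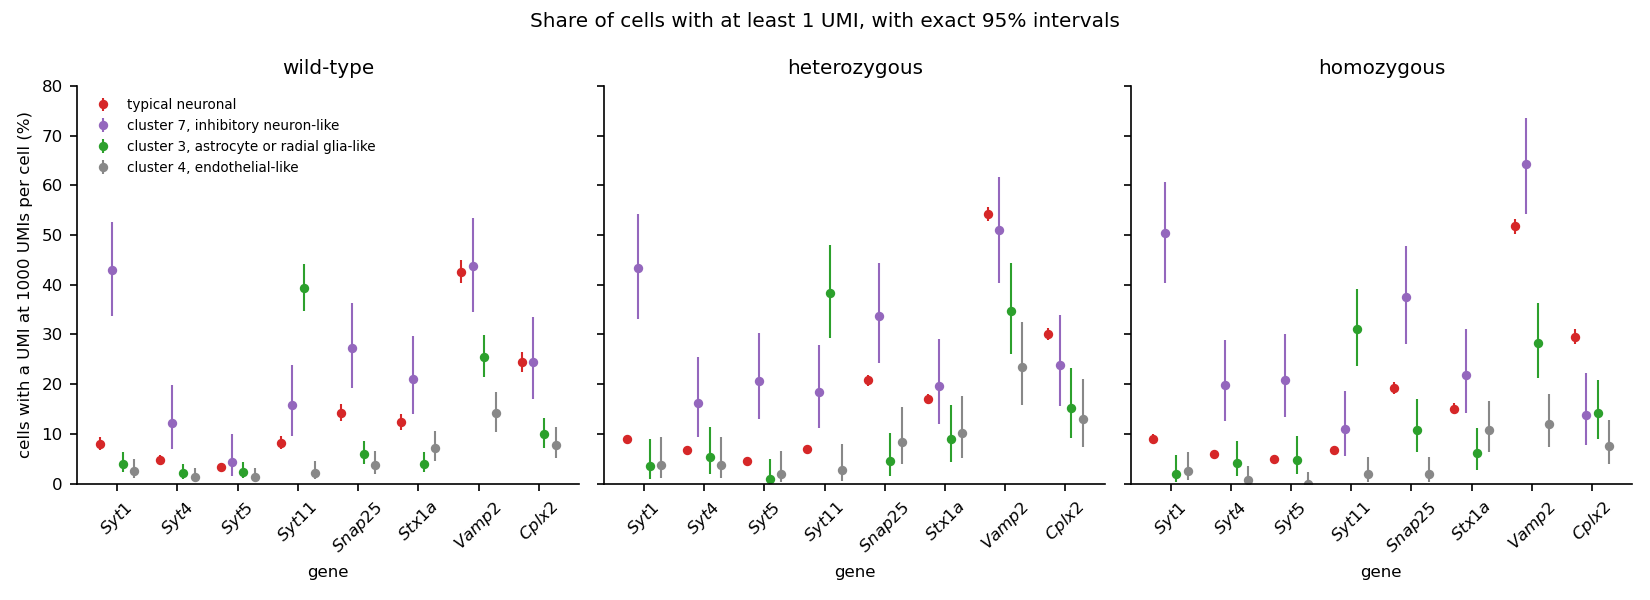
Percent of cells with at least 1 UMI of each gene at 1000 UMIs per cell, by library (panels), with exact 95% binomial intervals, for typical neuronal cells and 3 clusters. *Syt1* in cluster 7 (43.0 to 50.5%) and *Syt11* in cluster 3 (31.1 to 39.4%) stand above typical cells, and endothelial-like cells (cluster 4) are shown beside them.

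Across 47 profiles (typical cells, atypical cells and clusters of at least 20 cells, by library), the log2 of CPM plus 10 of each gene was correlated with that of 4253 others. The profiles share libraries and free RNA, so r is a description. The highest Pearson r was with *Ly6h* for *Syt1* (0.86) and *Syt5* (0.90), *Myt1l* for *Syt4* (0.82), *Stmn3* for *Snap25* (0.89), *Snrpn* for *Vamp2* (0.94), *Arhgdig* for *Stx1a* (0.83), *Fxyd7* for *Cplx2* (0.88) and *Gria2* for *Syt11* (0.86). The mean of the 8 was most like *Stmn3*, *Ly6h*, *Gng3*, *Stmn4* and *Snrpn*, with r from 0.90 to 0.91. Among the 8 genes, 7 had pairwise r of 0.58 to 0.87, and *Syt11* had r of -0.10 to 0.22 with the rest.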

How the data were processed

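The members and lists were chosen with earlier results of these data known. Per the labels and the study's methods, UMI counts came from Cell Ranger 2.0.1 (genome mm10), and the authors filtered cells on UMIs, genes and mitochondrial share; the counts of filtered cells were not normalized. The mitochondrial share was deposited as a fraction. The deposited table of neuronal cells, log-normalized by the authors to a natural log scale, was used for gene names and, with its list of cells, for classes only. The UMIs of the 8 genes were equal in the filtered table and the raw matrices in every cell.

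UMIs were summed by library and class and scaled to the total UMIs of the class (CPM). Log2 ratios have exact conditional binomial 95% intervals, levels exact Poisson and shares Clopper-Pearson intervals, which cover counting error only. Pairs of cells under 1 barcode (doublets) were not called, and an alternative leaves out the 5% deepest cells. Other sorted cells were clustered (30 principal components, 20 neighbours, Leiden resolution 0.6, igraph) and named from markers. Ratios were tested on simulated data. Named genes were the 8, the 3 highest and 3 lowest listed genes by homozygous ratio, the likeness genes, *Tbr1*, *Neurod6* and *Nrgn*. Scaling by edgeR 4.0.16 and DESeq2 1.42.0 factors was an alternative, with no test. Tools were Python 3.11.15, NumPy, SciPy and pandas.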

Additional observations from a re-analysis of the deposited data

Results flagged for a closer look

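*Stx1a* had a heterozygous over wild-type log2 ratio of 0.47 in typical and 1.14 in other sorted cells but -1.11 (-2.39 to -0.03) in atypical cells, the last on 8 UMIs against 54, so the directions were opposite. *Syt1* had a homozygous over wild-type log2 ratio of 0.16 in typical and 0.90 in other cells but -0.84 (-1.52 to -0.18) in atypical cells, on 32 UMIs against 52. The difference between classes was not tested in either case, and atypical cells numbered 107 to 462 in a library.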

How the results depend on the processing

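No paired analysis was possible because each genotype has 1 library, so leaving out a replicate was not possible either. Raw UMIs per cell move every gene by the same amount (-0.09, -0.42 and -0.33 on the log2 scale), so the values here follow from depth and are not particular to these genes. The summed log2 ratio was then 0.36 (heterozygous over wild-type), -0.0629 (homozygous over wild-type, turned from 0.36) and -0.43 (homozygous over heterozygous, -0.09 as reported), and *Stx1a*, *Vamp2* and *Cplx2* in the homozygous library stood at -0.0436, -0.0098 and -0.0911. The genes past the 25% factor were then 5 higher and 1 lower (heterozygous), 0 higher and 1 lower (homozygous) and 6 lower (homozygous over heterozygous). The share of all genes past this factor with raw UMIs was not computed, so these counts have no background beside them. Subtracting the empty-droplet profile gave 0.38 and 1 gene lower in the heterozygous library, and pooling typical with atypical cells also gave 1 lower. With the genes of the neuronal table as denominator the homozygous ratio was 0.30 with 3 genes higher. Shares of all genes were not computed under these 3 alternatives either. With no filter on low counts beyond a UMI in typical cells of every library, 25.9% (heterozygous) and 24.6% (homozygous) of genes were lower than wild-type by the 25% factor. Homozygous over heterozygous then had 18.2% higher and 14.7% lower by the same factor. TMM and DESeq2 scaling gave 0.46 and 0.46 for the heterozygous and 0.35 and 0.34 for the homozygous sum.

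The summed typical over other ratio (0.67, 0.28 and 0.47 for wild-type, heterozygous and homozygous) was 0.81, 0.34 and 0.58 with the neuronal denominator and 0.13, -0.39 and -0.0700 with raw UMIs, where 0 genes were 2-fold higher in the wild-type and homozygous libraries and 2 were lower in each mutant library. Other cells were deeper than typical cells in each library. Without the excitatory and inhibitory neuron-like clusters it was 0.93, 0.66 and 0.98, with 6 (wild-type) and 5 (homozygous) genes 2-fold higher. Subtracting the empty-droplet profile gave 0.90 (wild-type) and 0.59 (homozygous, 2 genes higher). The mean per 10000 UMIs gave 0.34 (heterozygous) and 0.56 (homozygous, 0 higher), and thinning 0.39 and 0.56. For typical over atypical cells the homozygous sum moved from 0.30 to 0.20 with the neuronal denominator, and 1 gene in place of 2 was past 2-fold in the heterozygous library with the mean per 10000 UMIs and in the homozygous with thinning. The share of all genes past 2-fold was not computed under any of these alternatives for cell classes. The highest cluster mean of *Cplx2* moved from 368 to 391 CPM with 15 principal components. Without thinning, shares for any of the 8 genes were 91.2%, 94.2% and 90.1%. Of the ratios of single genes, 198 genotype ratios moved by less than their counting interval, 15 by more, and 3 that were past the 25% factor as reported turned sign. Turns of sign by ratios below that factor were not counted as such: with raw UMIs, *Syt1* and *Syt4* (homozygous over wild-type) and *Syt5* and *Syt11* (homozygous over heterozygous) turned and are among the 15, and 4 further turns are among the 198. Of typical over other ratios 77 moved by less and 67 by more, of typical over atypical 119 and 1, and of shares of cells without thinning all 24 by more. The cause of these shifts was not tested.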
